A study of Arabidopsis thaliana with 4 samples.

Results

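Beta-expansins (EXPB) and expansin-like genes (EXLA and EXLB) form the smaller branches of the expansin superfamily of Arabidopsis thaliana. Members were taken by name: every gene whose current symbol starts with EXPB, EXLA or EXLB and that has a probe set (a group of short oligonucleotides on the array) assigned to that gene alone. This gave 8 genes out of 13356 with such a probe set, namely the beta-expansins EXPB1, EXPB2, EXPB3 and EXPB5 and the expansin-like genes EXLA1, EXLA2, EXLA3 and EXLB1. RefSeq lists 10 genes with these names, and the 2 others, EXPB4 and EXPB6, were not analysed here. Each of the 8 was read by a single probe set.

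Expression was measured in roots of 3-week-old Col-0 seedlings on 4 Affymetrix arrays, 2 for each of 2 groups, and every array read RNA pooled from 5 seedlings of one dish. Both groups spent 24 hours in liquid MS medium with 3% sucrose and then 5 hours in foil-covered canisters. For low oxygen, canisters received 0.1% oxygen in nitrogen for 20 minutes and were closed. For normal oxygen, canisters were not flushed and kept unsealed, so the effect of oxygen and that of flushing and sealing cannot be told apart. Col-0 is the wild-type laboratory accession, and no mutant or transgene was involved. Among the genes chosen to mark root tissue, PYK10, the abundant root beta-glucosidase gene, was the one measured by name. It stood at 12.84 and 12.90 at low oxygen and at 13.41 and 13.66 at normal oxygen. PYK10 was thus itself lower at low oxygen (log2 change -0.67, limma adjusted p = 0.0049).

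Expansins are secreted proteins that loosen the plant cell wall at acidic pH without cutting its polymers, and so let turgor stretch the wall during growth. Alpha-expansins (EXPA) act on contacts between cellulose and xyloglucan. Beta-expansins are known best from grasses, where group-1 pollen allergens belong to them and act on arabinoxylan-rich walls. Expansin-like proteins share the overall architecture of expansins, but no wall-loosening activity has been established for them. Root growth and root hair outgrowth are textbook sites of expansin action.

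Of the 8 genes, 5 fell at low oxygen, 1 rose and 2 did not pass the test. EXPB1, EXPB2, EXPB3, EXLA1 and EXLA2 were lower at low oxygen, with log2 changes between -1.33 and -0.44. EXLA3 was higher, with a log2 change of 1.34. EXPB5 and EXLB1 had changes of -0.13 and 0.08. A gene passed where limma's test gave an adjusted p under 0.05, with Benjamini-Hochberg adjustment over 22746 probe sets. Of all these probe sets 33.4% passed, 15.8% as higher and 17.6% as lower at low oxygen. With a change of at least 2-fold as well, 4 of the 8 genes passed, against 10.5% of all probe sets. These were EXPB1, EXPB2, EXPB3 and EXLA3, the last with means below 6 in both groups. The median log2 change was -0.63 over the 8 genes and 0.00 over all probe sets, and the median size of a change, leaving out its sign, was 0.92 and 0.21. The groups did not overlap for any of the 8 genes, as was the case for 64.5% of all probe sets.

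**Figure D1:**
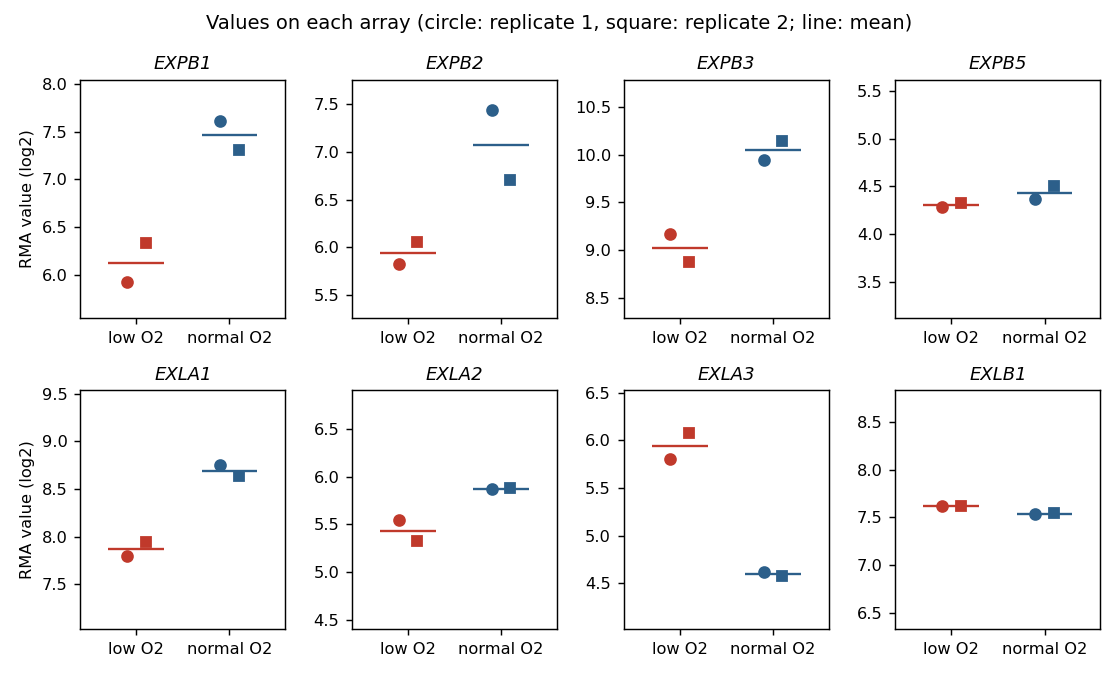
RMA expression value (log2) of each of the 8 genes on each array, with low oxygen in red and normal oxygen in blue. Circles are replicate 1, squares replicate 2 and lines the group means. Each panel spans the same range on the log2 scale. The low oxygen points lie clearly below the normal oxygen points for EXPB1, EXPB2, EXPB3 and EXLA1 and above them for EXLA3, and the points of EXPB5 and EXLB1 lie close together.

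EXPB1 had the largest fall of the beta-expansins. Its log2 values were 5.93 and 6.33 on the low oxygen arrays, against 7.62 and 7.31 on the normal oxygen arrays. Both low oxygen arrays were well below both normal oxygen arrays, and the gap of 0.40 between the low oxygen replicates was smaller than the distance between the groups. The means were 6.13 ± 0.29 at low oxygen and 7.46 ± 0.22 at normal oxygen (SD, n = 2 each), a log2 change of -1.33 (SE 0.17, 95% interval -1.74 to -0.93, limma adjusted p = 0.0011). This was 2.52-fold lower, and 2.88% of all probe sets had a more negative change.

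EXPB2 had the widest spread between replicates of the 8 genes. It stood at 5.82 and 6.06 on the low oxygen arrays, against 7.44 and 6.71 on the normal oxygen arrays. Normal oxygen replicate 1 was 0.74 above replicate 2, while the low oxygen arrays were within 0.24 of each other. Its log2 change was -1.13 (SE 0.23, 95% interval -1.69 to -0.58, limma adjusted p = 0.0097). The change was -0.76 without normal oxygen replicate 1 and -1.50 without normal oxygen replicate 2. The call ended without low oxygen replicate 1 (change -1.01, adjusted p = 0.0769). Over 11 alternatives its adjusted p lay between 1.6e-04 and that value.

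EXPB3 read 9.17 and 8.88 on the low oxygen arrays and 9.94 and 10.15 on the normal oxygen arrays. Its 4 values were far above the floor of the arrays, meaning the low end of the deposited values, which began at 2.95. The groups were separated by more than the difference between replicates in either group. The log2 change of -1.02 (SE 0.14, 95% interval -1.34 to -0.70, limma adjusted p = 0.0014) corresponds to a level 2.03-fold lower at low oxygen.

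EXPB5 gave signal near the floor throughout, at 4.28 and 4.32 at low oxygen and 4.37 and 4.50 at normal oxygen. All 4 values lay within a narrow band, and the change of -0.13 did not pass (SE 0.10, limma adjusted p = 0.4017). Its 95% interval, -0.37 to 0.11, does not contain the change measured for any other beta-expansin here. A transcript at so low a signal can change without its RMA value moving much, and no detection calls were at hand, so the interval limits the change in signal and not that in transcript. Over the 4 beta-expansins, 3 fell and the median change was -1.08.

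In the expansin-like branch, the EXLA genes moved in both directions, with falls of EXLA1 and EXLA2 and a rise of EXLA3. EXLA1 had log2 values of 7.80 and 7.95 on the low oxygen arrays and 8.75 and 8.63 on the normal oxygen arrays. Replicates differed by 0.15 at most, and the groups stood apart by several times that. The log2 change was -0.82 (SE 0.11, 95% interval -1.07 to -0.56, limma adjusted p = 0.0014), or 1.76-fold lower at low oxygen, and it stayed between -0.89 and -0.74 over 11 alternatives, passing in all of them.

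EXLA2, a gene whose overexpression is known to alter growth of the etiolated hypocotyl, had the smallest change of those that passed. It was at 5.54 and 5.33 at low oxygen, against 5.87 and 5.88 at normal oxygen. The normal oxygen arrays nearly coincided, and both low oxygen arrays lay below them. The log2 change was -0.44 (SE 0.11, 95% interval -0.71 to -0.18, limma adjusted p = 0.0219). This call depended on single arrays. It ended without low oxygen replicate 2 (-0.33, adjusted p = 0.1227), without normal oxygen replicate 1 (-0.45, adjusted p = 0.0515) and without normal oxygen replicate 2 (-0.43, adjusted p = 0.0602), and over 10 alternatives its adjusted p began at 0.0205. A change at least as large in size, in either direction, was found for 29.3% of all probe sets.

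EXLA3 was the one gene of the 8 that rose. Its values were 5.81 and 6.08 on the low oxygen arrays and 4.62 and 4.58 on the normal oxygen arrays. The normal oxygen arrays were close to the floor and to each other, and both low oxygen arrays lay more than 1 above them. The means were 5.94 ± 0.19 at low oxygen and 4.60 ± 0.03 at normal oxygen (SD, n = 2 each), a log2 change of 1.34 (SE 0.12, 95% interval 1.05 to 1.63, limma adjusted p = 2.6e-04). Only 3.48% of all probe sets had a more positive change. Because both group means were below 6, where signal over background is limited, no fold is given. The change lay between 1.21 and 1.47 over 10 alternatives and passed in all of them, but a filter that kept only probe sets reaching a mean of 6 in one group left EXLA3 out, together with EXLA2 and EXPB5.

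EXLB1, the one gene with an EXLB symbol in RefSeq, hardly differed between the groups. It read 7.62 and 7.62 at low oxygen and 7.53 and 7.55 at normal oxygen. The 4 arrays had the narrowest span of the 8 genes, at a level clear of the floor. The change of 0.08 did not pass (SE 0.09, 95% interval -0.14 to 0.31, limma adjusted p = 0.5986), and the interval leaves room for a rise of up to 0.31 or a fall of up to 0.14 on the log2 scale. Over the 4 expansin-like genes the median change was -0.18.

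**Figure D2:**
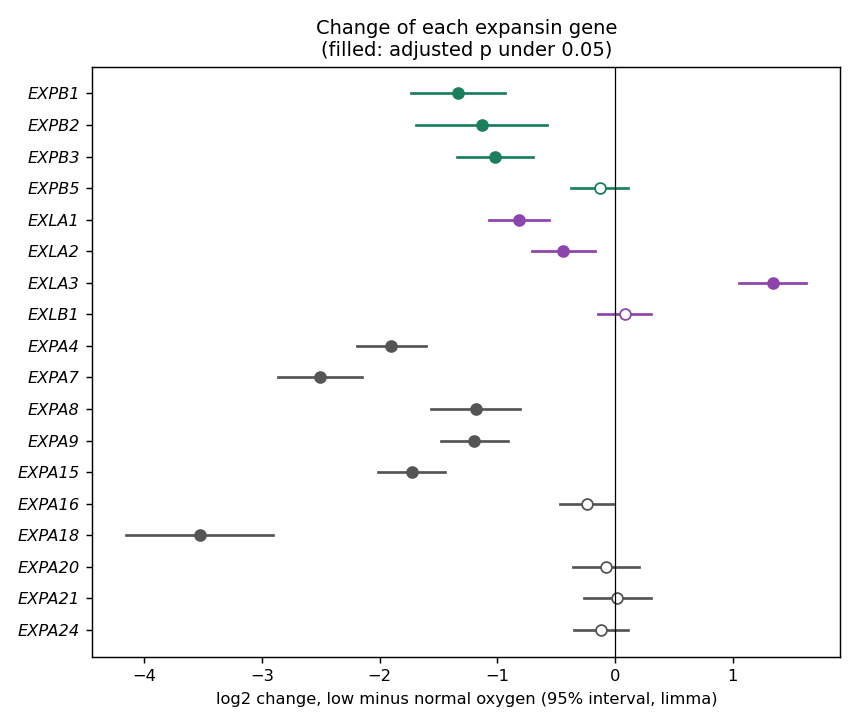
Log2 change at low relative to normal oxygen for the 4 beta-expansins (green), the 4 expansin-like genes (purple) and the 10 alpha-expansins measured by name (grey), with 95% intervals from limma and 2 arrays per group. Filled points passed at an adjusted p under 0.05. EXLA3, at 1.34, is the one filled point to the right of 0.

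The opposite directions of EXLA3 and EXLA1 concern genes that lie side by side: in RefSeq's gene order a single transfer RNA gene separates them. Taken within each array, the change of EXLA3 exceeded that of EXLA1 by 2.16 on the log2 scale, and by 2.13 and 2.18 when arrays of the same replicate number were set against each other. Leaving out each array in turn gave 2.097 to 2.22. The change of EXLA3 exceeded that of EXLA2 by 1.78, and that of EXLA2 exceeded that of EXLA1 by 0.38. For EXLA2 and EXLA1 the arrays numbered 1 and 2 gave 0.62 and 0.13, so the size of that difference was poorly determined. In an exact 2-sided permutation test over the arrays, each of the 3 pairs gave p = 0.3333, the smallest value that 2 arrays against 2 allow, and 0.3333 after adjustment over the 3 pairs.

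Direct neighbours in RefSeq's gene order could be read for EXPB1, EXPB3, EXPB5 and EXLB1. EXPB1 lies between AT2G20740 and AT2G20760, which had changes of -0.15 and -0.03 (limma adjusted p = 0.3595 and 0.8732), against -1.33 for EXPB1. EXPB3 lies between AT4G28240, which fell by 0.77 (adjusted p = 0.0013), and AT4G28260, which rose by 1.02 (adjusted p = 0.0013). EXPB3 thus had a neighbour that moved its way and one that moved the other way. Beside EXPB5, which did not pass, AT3G60580 fell by 0.40 (adjusted p = 0.0263), at a low level in both groups. It no longer passed without low oxygen replicate 1 (adjusted p = 0.1193), low oxygen replicate 2 (0.0952) or normal oxygen replicate 1 (0.1168). Over its 10 alternatives the adjusted p started at 0.0065. Beside EXLB1, AT4G17020 had a change of -0.30 (adjusted p = 0.1017). The other genes next to EXPB5 and EXLB1, and those next to EXPB2, EXLA1, EXLA2 and EXLA3, among them EXPB6 beside EXPB2, were not analysed here.

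**Figure D3:**
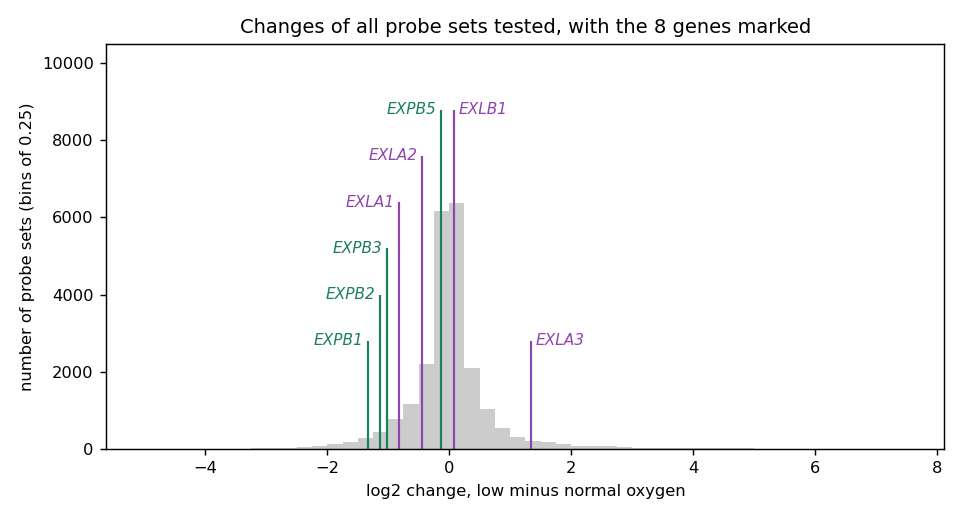
Number of probe sets by log2 change at low relative to normal oxygen, in bins of 0.25, for all 22746 probe sets tested. Vertical lines mark the beta-expansins (green) and expansin-like genes (purple), and line height only separates the labels. EXPB1 and EXLA3 stand furthest out on either side, at -1.33 and 1.34, and EXPB5 and EXLB1 lie in the central peak.

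RefSeq gives EXLB2 as a further name of AT4G30380, which the selection by current symbol did not include. This gene moved more than any of the 8. It stood at 7.59 and 8.40 on the low oxygen arrays, against 4.25 and 4.27 on the normal oxygen arrays. The normal oxygen values were near the floor, and the low oxygen replicates differed from each other by far less than the distance between the groups. Its log2 change was 3.74 (SE 0.24, limma adjusted p = 7.0e-05), and it passed under all 11 alternatives, with changes of 3.33 to 4.14.

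Other cell wall gene families were set beside the 8 genes by symbol. For comparison, 17.6% of all probe sets passed as lower and 15.8% as higher, with a median log2 change of -0.002. Among the 10 alpha-expansins with a named probe set, 6 fell while 4 did not pass, with a median log2 change of -1.19. Of those that did not pass, EXPA16, EXPA21 and EXPA24 had means below 6 in both groups. The largest falls were those of the root hair genes EXPA18 (-3.53, adjusted p = 1.2e-04) and EXPA7 (-2.51, adjusted p = 5.1e-05). Among 9 XTH genes, which encode enzymes that cut and rejoin xyloglucan, 5 fell, 1 rose and 3 did not pass. XTH26 and XTH33 had changes of -4.37 and -1.79, and XTH18 rose by 0.73. Of 15 GH9 endoglucanase genes, 8 fell and 7 did not pass. All 7 had means below 6 in both groups, as did GH9B5, GH9B6 and GH9C3 among those that fell. The limit given for EXPB5 at low signal thus holds for list genes that did not pass at such levels. GH9C1 and GH9C2 had the largest falls, with changes of -3.69 and -2.34. These families ran from -4.37 to 0.73, and the 8 genes from -1.33 to 1.34. Whether the families differ in their changes was not tested. The 1 pectin methylesterase gene measured by name, PME61, was low in both groups, with a change of -0.23, and no cellulose synthase or extensin gene was measured by name.

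Among the few markers of other cell types measured by name, those of root hair and shoot changed, and that of pollen did not pass. All 3 root hair genes measured by name, of 10 listed, passed as lower, against 17.6% of all probe sets. They were EXPA7, EXPA18 and XTH26, each already named in the lists above. Their mean log2 value was 7.12 and 6.51 on the low oxygen arrays and 10.38 and 10.18 on the normal oxygen arrays. The part of root hair cells in the falls of the EXPB and EXLA genes was not tested, and in whole roots fewer cells of a type and less RNA per cell cannot be told apart. RCA, the Rubisco activase gene and the one shoot marker of 10 measured by name, stood at 8.14 and 8.37 at low oxygen and at 7.11 and 6.79 at normal oxygen (change 1.31, adjusted p = 5.9e-04), and its part in the rise of EXLA3 was not tested. AT59, a pollen pectate lyase gene and the one measured of 4 pollen genes, was near the floor on all 4 arrays, between 3.82 and 3.91.

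For each gene that passed, the 3 genes with the most similar profile were found by the root-mean-square distance between log2 values centred on each gene's own mean over the 4 arrays. With 2 groups of 2 arrays, such likeness mostly reflects a change of the same size. The nearest to EXLA3 were AT3G16350 (distance 0.023), AT1G53980 (0.040) and AT3G48510 (0.041). EXPB1 was closest to GT72B1, a glycosyltransferase gene (0.065), AT3G46720 (0.066) and AT2G41480 (0.079). The profile of EXPB2 had less close matches, at distances of 0.077 for AT3G61300, 0.106 for AT3G14920 and 0.114 for the alpha-expansin gene EXPA8. EXPA8 shared the higher value on normal oxygen replicate 1, with 5.03 and 5.18 at low oxygen against 6.51 and 6.07 at normal oxygen. EXPB3 was nearest to AT1G14020 (0.026), EXLA1 to AT5G21130 (0.009) and EXLA2 to AT5G20880 (0.005).

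**Figure D4:**
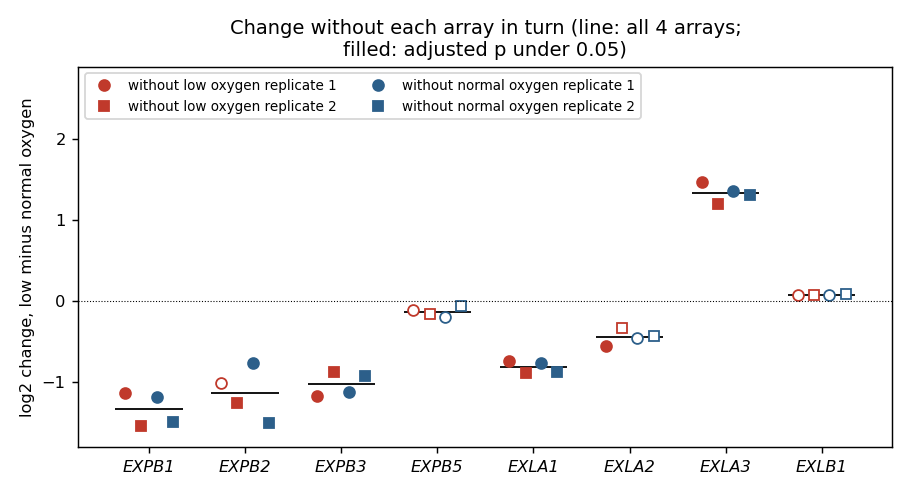
Log2 change of each gene at low relative to normal oxygen after leaving out each of the 4 arrays in turn (points) and with all arrays (lines). Filled points passed at an adjusted p under 0.05. The open points of EXPB2 and EXLA2 are the calls that ended, and no point lies on the other side of 0 from its line.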

How the data were processed

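Root RNA was read on 4 one-colour Affymetrix arrays from 7 ug of total RNA each, per the labels' protocols. The authors deposited log2 values for 22810 probe sets, made with RMA per the submitters' processing notes, which also name limma. RMA corrects background, brings the arrays to one distribution and summarises probes, which hides any change common to every transcript. Array medians lay between 6.33 and 6.36, and 2 arrays per group limited the precision.

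From these values, 64 control probe sets were left out and the other 22746 were fitted with limma 3.58.1 in R 4.3.3 (lmFit, eBayes, 2-sided, no block, Benjamini-Hochberg adjustment). The fit had 2 residual and 4.63 prior degrees of freedom. SEs and intervals of single genes come from it. Gene names came from the probe table of the platform, updated by gene identifier through RefSeq (TAIR10.1): 13513 probe sets had 1 gene, of which 13436 matched, 503 had several and 8730 were not listed. RefSeq start coordinates served only to order genes along each chromosome. Replicates are separate pools per the labels.

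All 8 members were named. List genes were the largest changes past the threshold, at most 2 per direction. AT4G30380 was added for its second name. The members and lists were chosen with earlier results of these data known. The fit was run on data simulated from its own variance model, which checks the code and not whether that model holds for these arrays. Alternatives changed the prior, normalization, block, level filter, threshold, probe sets and arrays. The comparisons of EXLA3 and of EXLA1 with EXLA2 were added afterwards.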

Additional observations from a re-analysis of the deposited data

Results flagged for a closer look

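A control probe set that reads 25S ribosomal RNA was left out of the gene tests. It gave 12.94 and 12.74 on the low oxygen arrays against 6.54 and 7.26 on the normal oxygen arrays. This is a log2 difference of 5.94, so it was above the control samples in both replicates. The cause of this difference was not tested. Because it follows the 2 groups, any bearing on the gene changes cannot be told apart from that of oxygen.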

How the results depend on the processing

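Of the 8 genes, 6 passed with either other prior, either other normalization, 1 probe set per gene and the replicate block, 5 without each array in turn, 5 at an adjusted p under 0.01, 4 with a fold of at least 2 and 4 where one group had to reach a mean of 6, a filter that removed 3 of the genes. Of 85 values for single members under these alternatives, 81 kept their direction and side of the threshold, and the 4 calls that ended were the 1 of EXPB2 and the 3 of EXLA2 given above. Of 381 values for 35 other named genes, 367 did so, 11 lost their call, and 3 changed sign without being past the threshold either way: AT59 without low oxygen replicate 1 or normal oxygen replicate 2, and AT2G20760 without low oxygen replicate 2. Over all 22746 probe sets, the 7593 calls became 5062 at an adjusted p under 0.01 and 2385 with a fold of at least 2. The filter on low values gave 6668 calls and 1 probe set per gene gave 4087, and both test fewer probe sets. Without each array in turn there were 5375 to 7001. The 8 called GH9 genes became 5 with the filter on low values. The groups use the same replicate numbers, but the difference between replicates 1 and 2 hardly correlated between the groups (r = 0.02 across probe sets). A replicate block left 6939 probe sets past the threshold, and it ended no call among the 8 genes. Taking a member's lowest probe set, or the mean over its probe sets, could give no other value, since each member had 1.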
